A study of Rattus norvegicus with 2 samples.

Results

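The interferon response genes are a set of 45 genes that cells switch on when interferons bind their receptors. They were chosen by name, with earlier results of these data known. Each was represented by its brightest probe set, taken by mean log2 signal over both arrays. Of the 45, 42 had a probe set under a single gene symbol among 14217 genes on the array. Gbp5, Trim21 and Xaf1 were not analysed here. The tissue was the liver remnant of rats, 24 h after partial hepatectomy (PH), an operation that removes liver lobes. The larger resection is 2/3PH and the smaller one 1/3PH. Per the series' design text, each group was a single pool of RNA from 3 animals, read on 1 array. The labels state no strain, sex or age, and liver without resection was not analysed here.

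Interferons are secreted by cells that sense viral nucleic acid or receive immune signals. Type I interferons act through Jak kinases on a complex with Stat2 and Irf9, which binds the interferon-stimulated response element (ISRE) in promoters, and interferon gamma acts mainly at the gamma-activated site (GAS). The induced proteins block viral replication, label proteins with Isg15 and supply peptides to MHC class I molecules. In liver, hepatocytes, Kupffer cells and endothelial cells all respond.

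On the 2/3PH array, 6 of 14 antiviral effectors of this set had signals at least 2-fold lower than on the 1/3PH array, and its 4 antigen-processing genes had nearly equal signals. Among 39 members above the floor, 9 (23.1%) passed the limit of 2-fold as lower, against 3.68% of all 9514 genes with such a signal. None was at least 2-fold higher, against 6.12% of all genes, and 33 of 39 had a log2 ratio below 0, against 47.1% of all genes. The median log2 ratio, 2/3PH minus 1/3PH, was -0.62 for the members and 0.03 for all genes. The floor was a signal of 89.2, the median over probe sets. Differences between roles were not tested. A single array per group leaves no replicate error and allows no test, so every ratio compares these pools only. The signal is the MAS 5.0 summary of a probe set, and signals of different genes are not set against each other. In bulk liver, fewer cells of a type and less RNA per cell cannot be told apart.

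Control transcripts added to the samples had lower signals on the 2/3PH array, with a median log2 ratio of -0.24 for the hybridisation controls and -0.44 for the poly-A controls. Scaling to them moved the median of all genes to 0.27 and 0.48. The members' median became -0.38 and -0.18. Each control scaling adds the same constant to every log2 ratio, so this median stayed 0.65 below that of all genes by construction. For the same reason, a list whose median turned positive under these scalings kept its distance from all genes. The tissue label was checked on hepatocyte markers: all 9 with a probe set were above the floor, with sums of 262558 in 2/3PH and 295931 in 1/3PH. Their median of -0.18 turned positive under both of these scalings, under quantile normalization and with a loess trend removed. On the deposited scale the hepatocyte median lay 0.22 below that of all genes. Under quantile normalization it was 0.05, where that of all genes was -0.002. With a loess trend removed it was 0.03, where that of all genes was 0.02.

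**Figure D1:**
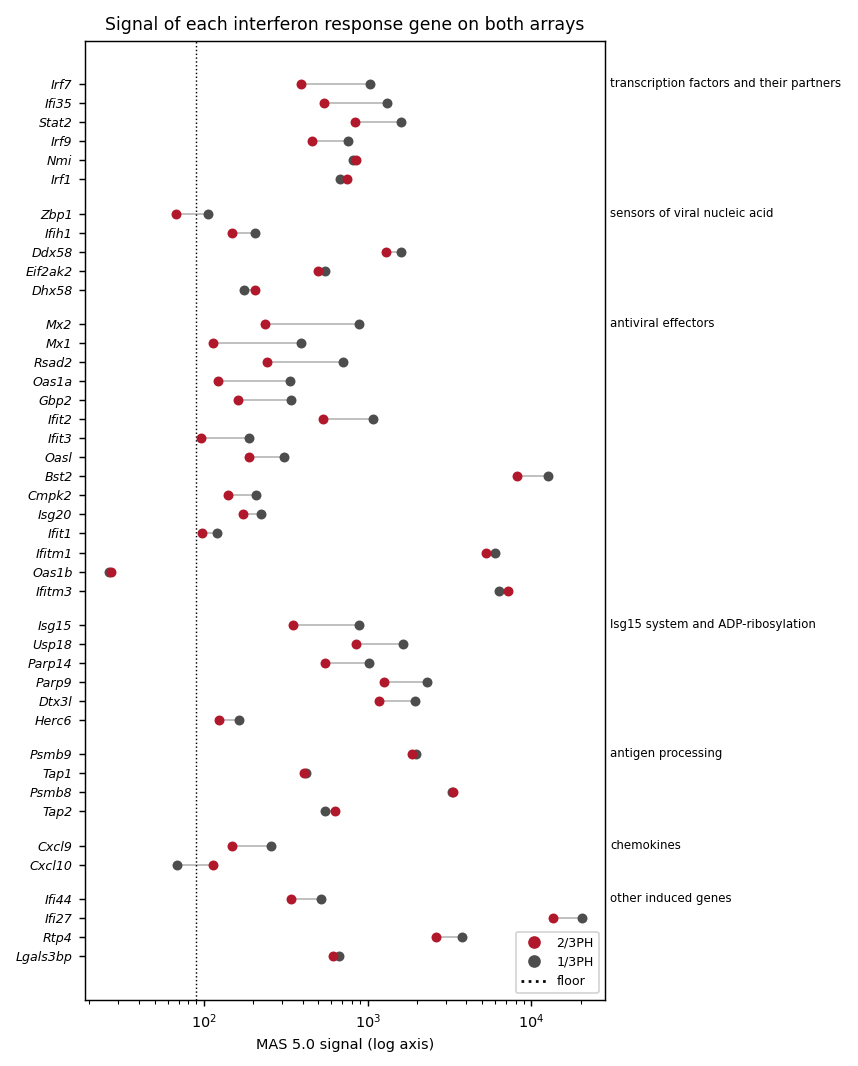
MAS 5.0 signal (log axis) of the 42 members on the 2/3PH array (red) and the 1/3PH array (grey), grouped by role; the dotted line is the floor of 89.2. Mx2 and Mx1 have the widest gaps on the deposited scale, and the points of Psmb8, Psmb9 and Tap1 nearly coincide.

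The promoter sequences show the element these genes are known for. RefSeq windows of assembly GRCr8, running from 250 bases before to 50 bases after the start, were found for 35 of the 45 members. They were searched on both strands for the ISRE letters, GAAA followed after any 2 bases by a second GAAA, which appear as TTTC repeated at the same spacing when the element lies on the opposite strand. Of these windows, 24 (68.6%) held a match, against 3.77% of all 27457 genes with a window. Among genes above the floor, 19 of 30 members (63.3%) held one, against 2.92% of the other genes. The GAS letters TTCNNNGAA, which read the same on both strands, were found in 9 of the 35 windows (25.7%), against 8.68% of all genes. Of the 30 ISRE matches, 1 overlapped a GAS match, in Bst2. In 19 of the 24 genes an ISRE match began within 100 bases before the start. A match describes letters and is not a measured binding site.

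Of the 9 members at least 2-fold lower, 6 had a window and 4 held ISRE letters. These 4 are printed in full, 5′ to 3′ on the gene's own strand, with every match in capitals. Rsad2 is at chr6:48788071-48788370 (minus strand), Oas1a at chr12:41330216-41330515 (plus), Irf7 at chr1:205799974-205800273 (minus) and Gbp2 at chr2:234005477-234005776 (plus).
Rsad2: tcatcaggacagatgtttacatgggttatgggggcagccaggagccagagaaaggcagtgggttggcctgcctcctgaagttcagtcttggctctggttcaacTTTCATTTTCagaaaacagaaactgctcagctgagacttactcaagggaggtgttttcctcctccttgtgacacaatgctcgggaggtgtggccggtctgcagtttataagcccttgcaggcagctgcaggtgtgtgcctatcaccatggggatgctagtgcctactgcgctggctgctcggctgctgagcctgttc
Oas1a: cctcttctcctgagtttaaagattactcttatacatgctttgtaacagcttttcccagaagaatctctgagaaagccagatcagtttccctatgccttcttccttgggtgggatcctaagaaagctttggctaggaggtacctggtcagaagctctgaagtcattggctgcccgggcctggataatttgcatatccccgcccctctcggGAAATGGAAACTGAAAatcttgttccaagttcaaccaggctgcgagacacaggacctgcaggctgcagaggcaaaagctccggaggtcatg
Irf7: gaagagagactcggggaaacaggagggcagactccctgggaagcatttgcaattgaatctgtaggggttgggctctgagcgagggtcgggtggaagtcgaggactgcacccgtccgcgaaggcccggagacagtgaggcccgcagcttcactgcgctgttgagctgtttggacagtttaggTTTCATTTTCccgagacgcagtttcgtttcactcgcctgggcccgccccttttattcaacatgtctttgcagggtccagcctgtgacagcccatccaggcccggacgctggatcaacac
Gbp2: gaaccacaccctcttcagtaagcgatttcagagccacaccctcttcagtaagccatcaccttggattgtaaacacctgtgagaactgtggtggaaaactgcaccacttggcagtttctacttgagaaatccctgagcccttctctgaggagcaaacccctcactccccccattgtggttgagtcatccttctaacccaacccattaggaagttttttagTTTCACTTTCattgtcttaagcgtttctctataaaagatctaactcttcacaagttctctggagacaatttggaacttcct
In Oas1a a pair of overlapping matches forms one longer run. Counted from the start, the first match began at base -147 in Rsad2, -41 in Oas1a, -69 in Irf7 and -31 in Gbp2. The windows of Mx1 and Ifi35, also at least 2-fold lower, held no match.

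Some genes with nearly equal signals held the same letters, while the windows of Psmb9 and Irf1, also nearly equal, held no match. The 30 bases around the match are shown for 3 antigen-processing genes and Ifitm3, picked after their values were seen. They lie at chr20:4657016-4657045, chr20:4668645-4668674, chr20:4652318-4652347 and chr1:205541783-205541812, in the order printed, all on the minus strand.
Psmb8: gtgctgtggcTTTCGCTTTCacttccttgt
Tap1: cggtggctgcTTTCGGTTTCttcttcctct
Tap2: gcagcgaagtGAAAGCGAAAgcccgggacc
Ifitm3: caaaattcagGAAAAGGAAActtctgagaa
Among members above the floor, the 19 with ISRE letters had a median log2 ratio of -0.58 and 4 at least 2-fold lower, and the 11 with a window but no match had a median of -0.72 and 2 at least 2-fold lower.

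**Figure D2:**
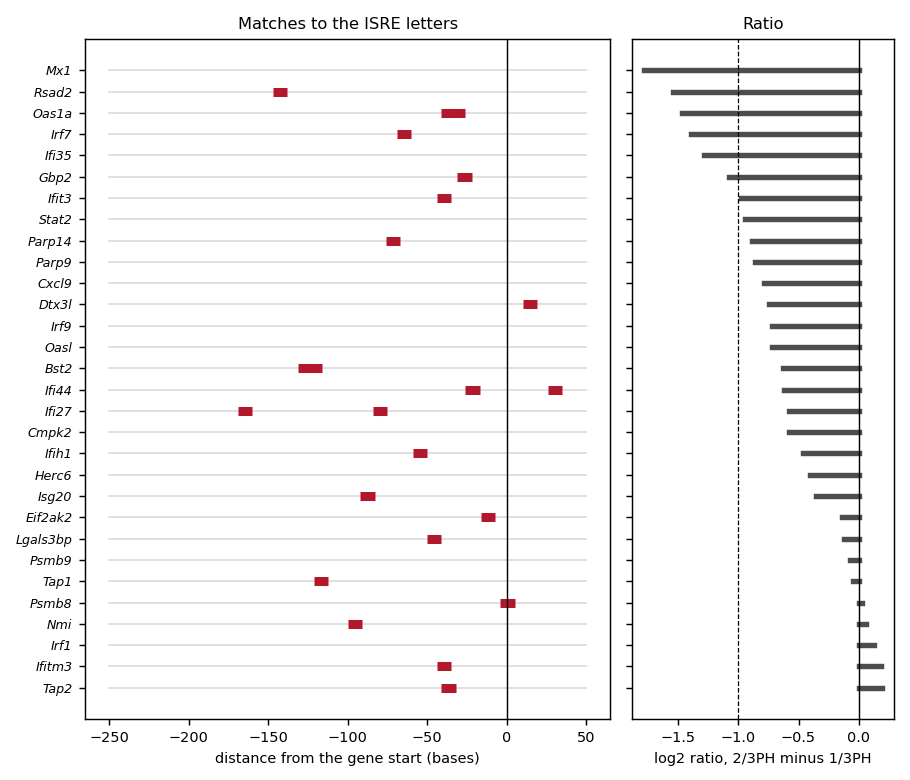
Left, matches to the ISRE letters (red) by distance in bases from the gene start, for the 30 members above the floor with a promoter window; right, the log2 ratio, 2/3PH minus 1/3PH, of the same gene, with the 2-fold line dashed. Matches occur near the start in genes at the top (Oas1a, Irf7) and at the bottom (Tap2, Ifitm3).

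The signals that start the response were low or similar on both arrays. Of 10 interferon ligands listed, 3 had a probe set and none reached the floor. Ifnb1 had signals of 2.93 on the 2/3PH array, against 33.2 on the 1/3PH array. Ifng had 1.00 in 2/3PH and 10.04 in 1/3PH, and Ifnk 12.7 in 2/3PH and 7.79 in 1/3PH. All of these lie under the floor, so no fold is given. Of the interferon receptor chains, 5 of 6 were above the floor and none passed 2-fold. The type I receptor chain Ifnar1 had signals of 135.8 on the 2/3PH array, against 134.1 on the 1/3PH array, and its partner Ifnar2 had 966 in 2/3PH and 1205 in 1/3PH. The gamma receptor chain Ifngr1 had 1329 in 2/3PH and 1729 in 1/3PH, and Ifngr2 had 923 in 2/3PH and 862 in 1/3PH. Il10rb, shared with the lambda interferon receptor, had 629.98 in 2/3PH and 899 in 1/3PH, a log2 ratio of -0.51. Ifnlr1 was under the floor. The receptors' median of -0.32 turned positive, to 0.12, under poly-A scaling, where that of all genes was 0.48.

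The relay from receptor to promoter had 10 of 13 listed genes above the floor, 1 of them at least 2-fold lower and none higher. That gene was Cish, an inhibitor of cytokine signalling through Stat5, with signals of 96.8 on the 2/3PH array, against 385.9 on the 1/3PH array, 3.99-fold lower. The kinase Jak2 had 81.3 in 2/3PH, under the floor, and 161.2 in 1/3PH, at least 1.81-fold lower. The phosphatase Ptpn11 had the highest ratio, 0.42. The relay's median of -0.22 turned positive under both control scalings, where that of all genes was 0.27 and 0.48. Socs1 and Socs3 were under the floor.

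The role of transcription factors and their partners held 6 members. Of these, Irf7 and Ifi35 (33.3%) were at least 2-fold lower, against 3.68% of all genes above the floor. Stat2, Irf9, Irf1 and Nmi did not pass the limit. Irf7, a transcription factor that amplifies type I interferon production, had signals of 393.5 on the 2/3PH array, against 1036 on the 1/3PH array, 2.63-fold lower. Ifi35, an induced protein that binds Nmi, had 539 in 2/3PH and 1316 in 1/3PH, 2.44-fold lower. Stat2 had 831 on the 2/3PH array, against 1603 on the 1/3PH array, a log2 ratio of -0.95, and its second probe set gave -0.85. These differences were on the same side of 0 in every alternative run. Irf9, the DNA-binding partner of Stat2, had 459.8 in 2/3PH and 757 in 1/3PH, a log2 ratio of -0.72, with -0.36 from its second probe set. Irf1, a factor induced mainly by interferon gamma, had 746 in 2/3PH and 681 in 1/3PH, a log2 ratio of 0.13. Nmi had 844 in 2/3PH and 809 in 1/3PH, with ratios of 0.06 and 0.52 from its probe sets.

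The sensors of viral nucleic acid differed little. Of 4 above the floor none passed 2-fold. Their median of -0.22 turned positive under both control scalings, where that of all genes was 0.27 and 0.48. The RNA helicase Ddx58 (RIG-I) had signals of 1294 on the 2/3PH array, against 1608 on the 1/3PH array, and Ifih1 (MDA5) had 149.4 in 2/3PH and 206.2 in 1/3PH. Eif2ak2, the kinase PKR, had 498 in 2/3PH and 547 in 1/3PH. Dhx58 had 205.3 in 2/3PH and 175.1 in 1/3PH, but its other probe sets lay on both sides of 0, at -0.37 and at least 1.74-fold higher, so its direction is not settled. Zbp1, at 67.7 in 2/3PH and 106.0 in 1/3PH, was under the floor. Among 10 upstream sensing and adaptor genes above the floor none passed 2-fold by its brightest probe set. All 10 lay below 0 on the deposited scale, against 47.1% of all genes. Their median of -0.32 turned positive under poly-A scaling, where that of all genes was 0.48. By the brightest probe sets Tlr8 had the lowest ratio, -0.93, with signals of 108.5 in 2/3PH and 207.1 in 1/3PH. Mavs had -0.67, but -1.92 from its second probe set. The adaptor Myd88 had -0.57 and the transcription factor Irf3 -0.16.

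Direct antiviral effectors held 6 of the 9 members at least 2-fold lower. Mx2, a dynamin-like GTPase that blocks viruses, had signals of 234.9 on the 2/3PH array, against 883 on the 1/3PH array, 3.76-fold lower. Its second probe set had 96.9 in 2/3PH and 437 in 1/3PH, a log2 ratio of -2.17. Mx1, its relative, had 113.3 on the 2/3PH array, against 391 on the 1/3PH array, 3.45-fold lower. Both Mx genes thus lay well under their 1/3PH signal, at ranks 46 and 59 from the lowest of the 9514 ratios. Rsad2 (viperin), which makes a chain-terminating nucleotide, had 243.6 in 2/3PH and 709.7 in 1/3PH, 2.91-fold lower. Oas1a, which makes the second messenger that activates RNase L, had 121.4 in 2/3PH and 336.3 in 1/3PH, 2.77-fold lower. Mx1, Mx2, Rsad2 and Oas1a stayed past 2-fold in every alternative that kept them, with ratios from -1.03 to -2.04.

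The next effectors lay near the 2-fold limit. Gbp2, a guanylate-binding GTPase, had signals of 161.9 on the 2/3PH array, against 342.2 on the 1/3PH array, 2.11-fold lower. Ifit2, a protein that binds viral RNA, had 532 in 2/3PH and 1082 in 1/3PH, 2.03-fold lower, with a log2 ratio of -0.62 from its second probe set. Ifit3 lay just outside the limit, with 96.0 in 2/3PH and 189.4 in 1/3PH, a log2 ratio of -0.98. These 3 lay on either side of the limit when the scaling changed, and under poly-A scaling Gbp2 was at -0.64, Ifit2 at -0.58 and Ifit3 at -0.54.

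Other effectors had smaller differences. Oasl had signals of 187.5 on the 2/3PH array, against 308.9 on the 1/3PH array, a log2 ratio of -0.72. Bst2 (tetherin), which holds budding virus at the cell surface, had 8164 in 2/3PH and 12654 in 1/3PH, a log2 ratio of -0.63. Isg20, an RNA exonuclease, had -0.35 and Ifit1 -0.32, and both turned positive under poly-A scaling. The membrane proteins Ifitm1 and Ifitm3, which hinder viral entry, were close to 0 on the log2 ratio. Ifitm1 had 5281 in 2/3PH and 5994 in 1/3PH. Ifitm3 had 7153 in 2/3PH and 6291 in 1/3PH. Cmpk2, a mitochondrial nucleotide kinase, had 139.6 in 2/3PH and 208.4 in 1/3PH by its brighter probe set, a log2 ratio of -0.58, but 117.2 in 2/3PH and 72.6 in 1/3PH, under the floor, by the other, at least 1.31-fold higher. Oas1b was under the floor, with 27.0 in 2/3PH and 26.2 in 1/3PH. Of 14 effectors above the floor, 13 were below 0 on the deposited scale, against 47.1% of all genes. The effectors' median was -0.85, or -0.41 under poly-A scaling, where that of all genes was 0.48.

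Of 6 members in the Isg15 system and ADP-ribosylation, 1 was at least 2-fold lower and 5 did not pass the limit. All 6 had ratios below 0 on the deposited scale, where 47.1% of all genes did. Isg15, a ubiquitin-like protein attached to other proteins, had signals of 349.2 on the 2/3PH array, against 886 on the 1/3PH array, 2.54-fold lower. Usp18, which removes Isg15 and dampens type I signalling, had 842 in 2/3PH and 1642 in 1/3PH, a log2 ratio of -0.96. Herc6, the Isg15 ligase in mouse, had 123.9 in 2/3PH and 163.9 in 1/3PH, a log2 ratio of -0.40 that turned positive under poly-A scaling. Parp9, which acts in a complex with Dtx3l, had 1256 in 2/3PH and 2286 in 1/3PH, a ratio of -0.86. Dtx3l, a ubiquitin ligase, had 1165 in 2/3PH and 1949 in 1/3PH, a ratio of -0.74. These 2 partners thus had like ratios. Parp14, an ADP-ribosyltransferase, had 551 in 2/3PH and 1018 in 1/3PH, a ratio of -0.89, and its dimmer probe set had 78.8 in 2/3PH, under the floor, and 196.6 in 1/3PH, at least 2.20-fold lower. The median of the group was -0.87, or -0.43 under poly-A scaling, where that of all genes was 0.48.

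Antigen processing stood at nearly equal signals. The immunoproteasome subunit Psmb8 had 3337 on the 2/3PH array, against 3277 on the 1/3PH array, and Psmb9 had 1876 in 2/3PH and 1969 in 1/3PH. The peptide transporter subunit Tap1 had 409.5 in 2/3PH and 422.1 in 1/3PH. Its partner Tap2 had 632 in 2/3PH and 550.2 in 1/3PH. Their log2 ratios ran from -0.07 to 0.20. Their median of -0.01 turned positive under both control scalings, where that of all genes was 0.27 and 0.48. Beside them, 12 further genes of MHC class I presentation had a median of -0.34, which was -0.15 under quantile normalization and became positive with poly-A scaling. One was past 2-fold, as lower: RT1-S3, a class I gene, with 1033 in 2/3PH and 2814 in 1/3PH, 2.72-fold lower, but class I genes are near-identical and could share probes. RT1-M3-1 had a log2 ratio of -0.78 and the peptide-loading factor Tapbp -0.76.

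The chemokines and remaining members were below 0 where they could be measured. Cxcl9, which attracts T cells, had signals of 147.8 on the 2/3PH array, against 255.6 on the 1/3PH array, a log2 ratio of -0.79, with -0.11 from its second probe set. Cxcl10 had 114.3 in 2/3PH and 68.3 in 1/3PH, higher on the 2/3PH array, but its mean log2 signal of 6.46 fell just under the floor of 6.48. Ifi27, a small membrane protein, had 13512.5 in 2/3PH and 20213 in 1/3PH, a log2 ratio of -0.58. Ifi44 had 338 in 2/3PH and 519 in 1/3PH, a ratio of -0.62. These were lower on the 2/3PH array by like amounts, as was Rtp4, a Golgi chaperone of receptors, with 2598 in 2/3PH and 3749 in 1/3PH, a ratio of -0.53. Lgals3bp, a secreted glycoprotein, had 611 in 2/3PH and 664 in 1/3PH, a ratio of -0.12 that turned positive under both control scalings.

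**Figure D3:**
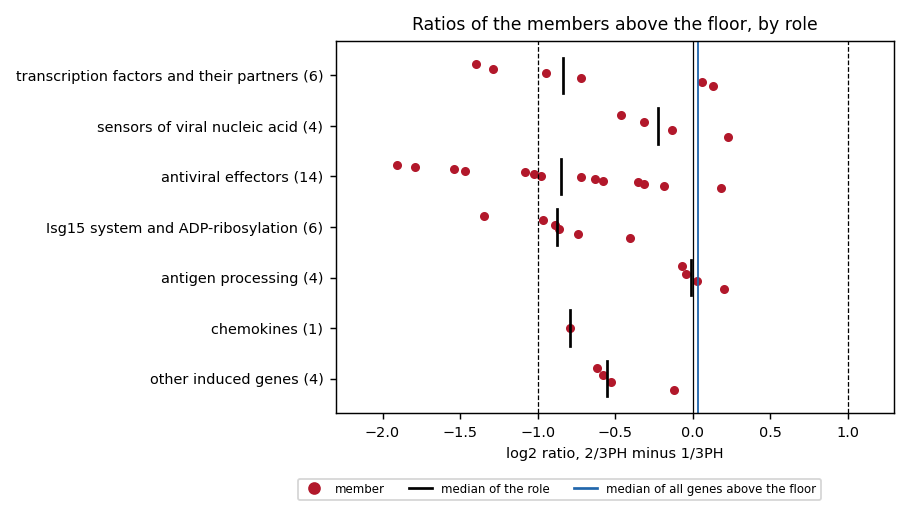
Log2 ratio, 2/3PH minus 1/3PH, of the 39 members above the floor (points) by role, with each role's median (black bar), the median of all genes (blue line) and the 2-fold limits (dashed). Effectors, the Isg15 system and most transcription factors lie to the left on the deposited scale, and antigen processing lies around 0.

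The log2 ratios of the 39 members ran from -1.91 to 0.23, with an SD of 0.57, against 0.66 over all genes above the floor. The SD of a probe set's log2 ratio within a gene was 0.33, over 2067 genes that had more than one such value above the floor. Of 9 members measured above the floor by more than one probe set, 6 had all of them below 0 and 2 had them on both sides. Of the 9 members at least 2-fold lower, 7 rest on a single probe set above the floor. By mean signal, 3 of 12 members under 256 units were past the limit, 6 of 15 from there to 1024 units, and none of 12 above that. For all genes these shares were 4.39%, 2.86% and 4.10%.

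Members that are neighbours in the RefSeq gene order mostly had like ratios. With no protein-coding gene between them, 8 pairs of members were above the floor. Of these, 6 differed by less than 0.33 on the log2 scale, against 34.3% of 4999 neighbouring pairs of all genes. Several of the pairs share a gene. Members that are not neighbours were not compared as pairs, so an effect of position was not tested. Parp9, Dtx3l and Parp14, consecutive on chromosome 11, had ratios within 0.14 of each other. Tap2, Psmb8, Tap1 and Psmb9, consecutive on chromosome 20, all lay near 0. Ifit2 and Ifit3 differed by 0.04. The widest gap was Rsad2 against Cmpk2, at -1.54 and -0.58, and Cmpk2's probe sets disagreed. Mx1 and Mx2, with 1 gene between them, were at -1.79 and -1.91. Ifit3 and Ifit1, also with 1 gene between them, were further apart, at -0.98 and -0.32, as was Ifit2, at -1.02, from Ifit1.

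Interferon-stimulated genes outside the set lay mostly on the same side of 0, with a median nearer to it. In a list of 43 further genes above the floor, 5 (11.6%) passed the 2-fold limit as lower and 1 as higher, and 35 were below 0. Of all genes above the floor, 3.68% passed as lower and 6.12% as higher, and 47.1% were below 0. With signals under the floor raised to it, an alternative chosen after seeing the data, 4 (9.30%) passed as lower, against 3.5% of all genes, and Nlrc5 did not. The median of the list was -0.48, or -0.04 under poly-A scaling, where that of all genes was 0.48. Ddx60, an antiviral helicase, had 65.2 on the 2/3PH array, under the floor, and 231.7 on the 1/3PH array, at least 2.60-fold lower. Nlrc5, an activator of MHC class I genes, had 52.5 in 2/3PH and 156.8 in 1/3PH, at least 1.76-fold lower. The T-cell chemoattractant Ccl5 had 213.6 in 2/3PH and 572 in 1/3PH, 2.68-fold lower. Irgm, an immunity-related GTPase, had 401.3 in 2/3PH and 1021 in 1/3PH, 2.55-fold lower, and Cxcl11, a neighbour of Cxcl10, had 1221 in 2/3PH and 2587 in 1/3PH, 2.12-fold lower. Tor3a, a torsin ATPase, went the other way, with 540.1 in 2/3PH and 180.9 in 1/3PH, 2.98-fold higher.

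Markers of several liver cell types also had ratios below 0 on the deposited scale, where 47.1% of all genes did. All 9 hepatocyte markers were below 0, with a median of -0.18 that was 0.05 under quantile normalization. All 12 Kupffer cell and macrophage markers above the floor were below 0, with a median of -0.60. Their summed signal was 18591 in 2/3PH and 27302 in 1/3PH. The lysozyme Lyz2, at -1.29, was the one past 2-fold. All 8 sinusoidal endothelial markers were below 0, with a median of -0.67 and sums of 10614 in 2/3PH and 16726 in 1/3PH. Among them the receptor Kdr, at -1.08, was past 2-fold, and Pecam1 was nearly equal, with 196.1 in 2/3PH and 196.5 in 1/3PH. Under poly-A scaling the Kupffer cell and endothelial medians were -0.15 and -0.23, where that of all genes was 0.48. Stellate markers had 7 of 9 below 0, a median of -0.73 and sums of 8805 in 2/3PH and 14731 in 1/3PH. Lum, Lrat and Col1a1 were past 2-fold among them, at -1.81, -1.30 and -1.04.

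Both neutrophil markers above the floor were below 0, with sums of 1224 in 2/3PH and 2696 in 1/3PH, and S100a9, at -1.33, was past 2-fold. All 4 erythroid markers above the floor were below 0, with sums of 13465 in 2/3PH and 27795 in 1/3PH. The globin Hba-a3 had a ratio of -1.41, and Nfe2 was at least 3.86-fold lower, with a 2/3PH signal under the floor. Lymphocyte markers were mostly under the floor. Of 13 T and NK cell markers 10 were, and the sum of all 13 was 841 in 2/3PH and 857 in 1/3PH. Of the 3 above it, Zap70 was at least 2.03-fold higher, Gzma at least 1.69-fold lower and Lck close to equal. All 3 B cell markers were under the floor, with sums of 116.6 in 2/3PH and 150.1 in 1/3PH. Apart from the member Bst2, the plasmacytoid dendritic cell list had 3 markers above the floor, with a median of -0.36 and sums of 729 in 2/3PH and 1003 in 1/3PH. Cholangiocyte markers had 1 of 3 below 0, with sums of 1284 in 2/3PH and 1226 in 1/3PH. The part of these cell types in the interferon gene ratios was not tested.

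**Figure D4:**
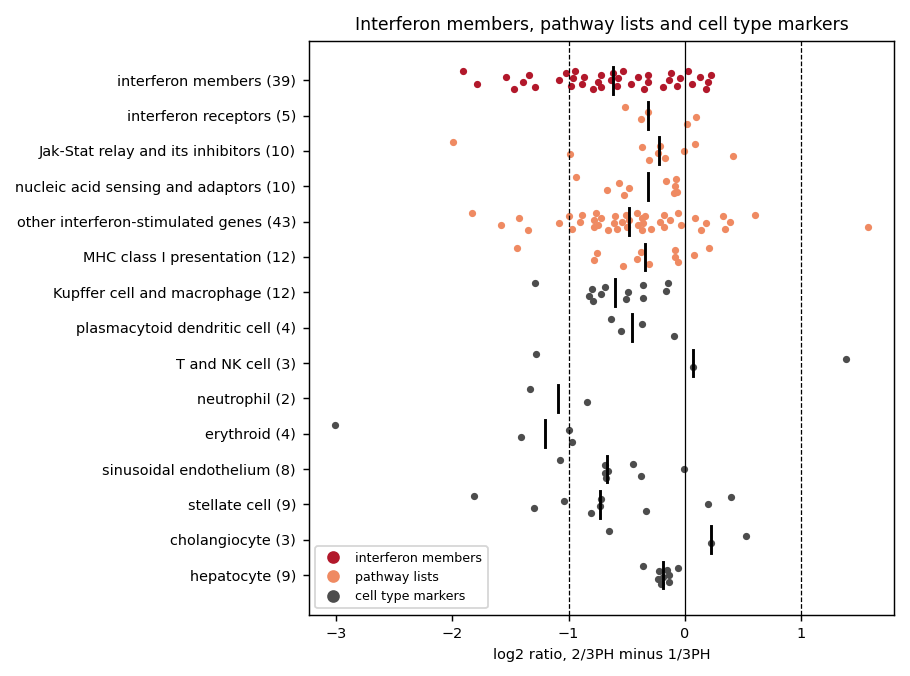
Log2 ratio, 2/3PH minus 1/3PH, of genes above the floor in the interferon set (red), the pathway lists (orange) and the cell type marker lists (grey), each with its median (black bar) and its number of genes. The interferon median of -0.62 lies between those of the Kupffer cell (-0.60) and endothelial (-0.67) markers. The medians of receptors, sensing genes, MHC class I, hepatocyte markers and the Jak-Stat relay turn positive under poly-A scaling. That scaling shifts every gene alike and moves the median of all genes from 0.03 to 0.48.

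**Figure D5:**
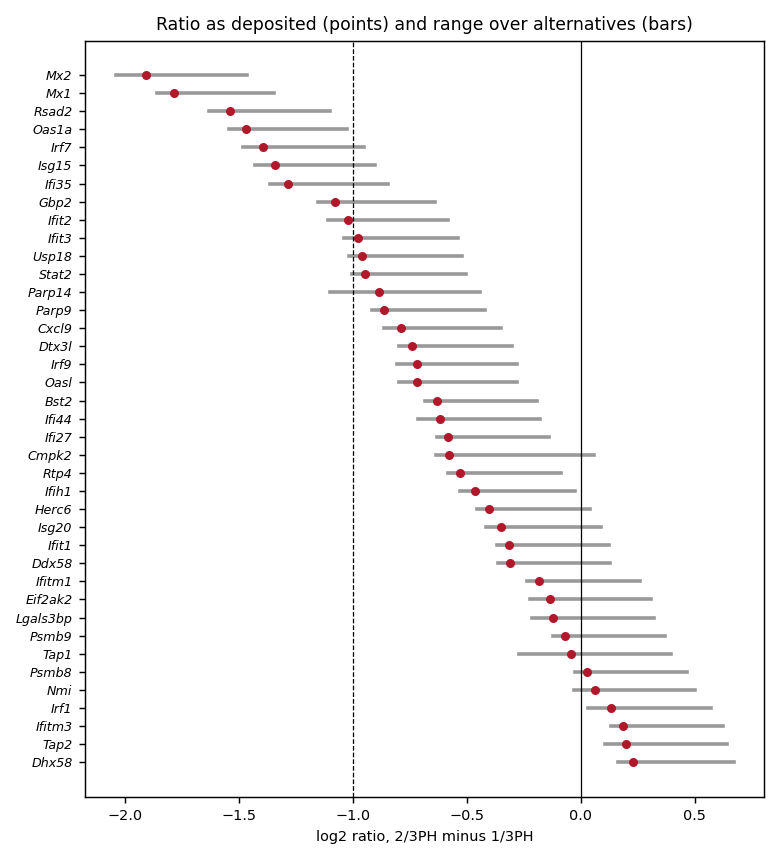
Log2 ratio, 2/3PH minus 1/3PH, of each member above the floor as deposited (point), with the lowest and highest value over the alternatives that kept it (bar). Mx2, Mx1, Rsad2 and Oas1a lie past the dashed 2-fold line throughout, and the bars of Ifitm1, Tap1 and Psmb8 cross 0.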

How the data were processed

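Each array measured liver RNA pooled from 3 rats, labelled with a 3' IVT Express kit per the labels' protocols. The authors' signals came from MAS 5.0 (GeneSpring 11.0), by the same protocols, and the deposited values are on a log2 scale. That base was checked: taken as powers of 2 and trimmed by 2% at each end, they average 500.2 for 2/3PH and 500.3 for 1/3PH. The sources give no detection calls, so the floor stood in for them. The number of arrays limits the precision.

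Excluding controls, 31042 probe sets remained, of which 20826 carried 1 symbol, 436 several and 9780 none here. Symbols were updated through Entrez identifiers to RefSeq (GRCr8), and 1 member, Ddx58, was matched by synonym. The log2 ratio, 2/3PH minus 1/3PH, was called at 2-fold. A fold whose dimmer signal was under the floor uses the floor and reads "at least". Alternatives changed scaling, floor, added units, probe set choice and fold limit. Named genes are all members, the interferon receptors and Irf3, pathway genes past 2-fold or among the 3 largest absolute ratios of a list, and of each marker list up to 3 of the largest absolute ratios. The markers Pecam1, Rgs5 and Des were added after their values were seen. One listed gene of the Jak-Stat relay is not reported here. Members and lists were chosen with earlier results of these data known. The procedure was tested on simulated data. Its simulated differences lay clear of the floor and of the 2-fold limit, so it does not cover weak signals or ratios near that limit. Python 3.11.15, pandas 2.3.3 and statsmodels 0.14.6 were used.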

Additional observations from a re-analysis of the deposited data

How the results depend on the processing

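The median of the members stayed below 0 in every alternative run, and no member was at least 2-fold higher in any. Of the 9 members at least 2-fold lower, none changed sign, and 4 stayed past 2-fold in every alternative that kept them. The count of 9 became 4, and the median -0.18, under poly-A control scaling, with 24 of 39 below 0. Under that scaling 1.29% of all genes were at least 2-fold lower, and their median was 0.48. The count was 5 of 24 with a floor at the 75th percentile, which leaves fewer genes, against 3.61% of all genes there. It was 20 at a limit of 1.5-fold and 2 at 3-fold, against 12.0% and 0.999% of all genes lower. In all other alternatives it lay between 7 and 12, where the share of all genes lay between 2.21% and 8.53%. Of 39 members, 23 were below 0 in every alternative. Poly-A control scaling raised the count of all genes at least 2-fold higher to 1599 and lowered that of lower ones to 123, against 582 and 350 on the deposited scale. Hybridisation control scaling gave 973 and 210. Without a floor the counts were 1662 and 1213 of 14217 genes. No paired analysis was possible because each group has 1 array. Weak signals near the floor have no measured error here.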

Other observations

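The ISRE letters were also examined across the array. Of 8018 genes above the floor with a promoter window, 252 (3.14%) held a match. Their median log2 ratio was -0.10, against 0.04 for the 7766 without one, and 5.95% were at least 2-fold lower against 3.45%. Without the interferon members and the pathway lists, 214 genes with the letters had a median of -0.02, against 0.05 for 7706 without, and 3.74% against 3.43% were at least 2-fold lower. Genes at least 2-fold higher made up 4.67% of those 214 and 6.38% of the others. These are descriptions over genes of the same arrays, with no test.

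Holders of the letters were unevenly spread over the pathway lists. They were 13 of 36 further interferon-stimulated genes above the floor with a window, 5 of 10 genes of MHC class I presentation, 1 of 9 sensing and adaptor genes, and none of 5 receptors and 8 relay genes.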
